A study of Mus musculus with 10 samples.

Results

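The start of mouse chromosome 14 carries a tract of near-identical genes, and the table of read counts from the left ventricle holds 62 rows there. The 54 rows with a start between 3000000 and 7700000 (GRCm38) and at least 20 counts over all 10 libraries were grouped, out of 21222 rows in all. Of these 54 members, 50 are annotated as protein-coding, 2 as processed pseudogenes (Esd-ps and Gm17046) and 2 as unprocessed pseudogenes (Gm3715 and Gm3760). The reference annotation (GENCODE M21) places 178 genes in the same interval, and those without a row are not analysed here. The tract was selected on its read counts, which were high in transgenic hearts, and its members were chosen by position and by the sum of counts over all libraries. That sum came from 328 counts in the non-transgenic libraries, 1440 in the low line and 4786 in the high line. All differences between groups below are therefore a description of the rows chosen, and nothing is read from how many of them differ. Adjusted p-values come from a fit over all genes and set each row's difference against the spread between libraries.

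Left ventricles came from C57BL/6J males aged 6 months in all 3 groups. NTG (n = 4) are non-transgenic mice, TGL (n = 3) carry the CaNrf2-Low genotype and TGH (n = 3) the CaNrf2-High genotype, a constitutively active form of Nrf2. The promoter that drives the transgene and the number of founders behind each line are not given in the labels. The labels do not say whether libraries came from separate animals, so p-values measure the spread between these libraries.

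Nrf2 is a transcription factor that pairs with small Maf proteins at antioxidant response elements and switches on genes of glutathione and quinone metabolism. Takusan is a gene family that has expanded by duplication in rodents (the name is Japanese for "many"), and its proteins were described in mouse neurons as partners of the synaptic scaffold protein PSD-95. Esd encodes esterase D, also known as S-formylglutathione hydrolase, which releases glutathione in the last step of formaldehyde breakdown. Esd-ps and Gm17046 are processed pseudogenes, which are copies of a spliced transcript put back into the genome, and such copies usually lack a promoter of their own.

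The members fell into 2 kinds by sequence. A word here is any stretch of 50 bases of a gene's annotated transcripts, and 2 genes were joined when at least 10% of the words of one were found in the other. By this measure 52 members formed 1 network around 2610042L04Rik, which RefSeq lists with the synonym takusan, and they are called takusan-type here. The other 2 are the Esd pseudogenes. Of the 178 annotated genes of the interval, 103 belonged to the takusan network and 9 to the Esd pseudogenes. The 50-base word held by the coding part of the most takusan-type members is shown because a read of that length from it could come from any of 88 genes of the interval and 3 outside it. It lies in 43 of the 52 members.

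takusan word: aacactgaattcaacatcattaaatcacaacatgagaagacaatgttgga

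Takusan-type members shared from 47.6% to 100% of their words with another annotated gene, with a median of 88.2%. For 4 members every word was found in another gene. The members with the largest part of their own were Gm8237 (47.6% shared), Gm3248 (48.8%) and Gm6356 (49.2%). A median of 31.7% of the words also occurred in genes outside the interval, and none of the 52 members shared a word with Esd. The counting method and its treatment of reads that map to several places are not stated in the labels or notes, so the value of a single copy cannot be separated from that of its near-identical copies.

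The Esd pseudogenes shared 82.1% (Esd-ps) and 74.5% (Gm17046) of their words with another annotated gene, all of it found in other genes of the interval. With Esd itself they shared 16.3% and 14.5%. The same 100 bases of the coding sequence of Esd (coding bases 653 to 752) and of both pseudogenes are shown because they carry the differences by which reads of the copies can be told apart. Capitals mark bases that differ from Esd. The window was taken at the median divergence of 748 windows compared without gaps.

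Esd: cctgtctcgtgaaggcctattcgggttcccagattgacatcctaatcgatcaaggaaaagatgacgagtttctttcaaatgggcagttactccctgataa

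Esd-ps: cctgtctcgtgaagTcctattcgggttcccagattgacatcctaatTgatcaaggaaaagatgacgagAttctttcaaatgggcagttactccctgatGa

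Gm17046: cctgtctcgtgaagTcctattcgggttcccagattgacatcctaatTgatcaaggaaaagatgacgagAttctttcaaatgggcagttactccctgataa

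Esd-ps differed from Esd at 4 of these bases (96.0% identity) and Gm17046 at 3 (97.0%). All 3 differences of Gm17046 were also present in Esd-ps. Over all windows compared the 2 pseudogenes together had from 2 to 36 differences. Esd-ps lies at chr14:3051653-3052499 on the minus strand, inside the gene body of Gm2897 on the plus strand, and Gm17046 (chr14:5877076-5877925, plus) overlaps Gm8237 on the minus strand. Gm3164, Gm3173 and Gm3182 overlap in a chain on the plus strand, and Gm6337 lies within Gm8206 on the minus strand. Without a stated strand of counting, reads of partners on opposite strands cannot be told apart. The gene Esd itself lies far from the tract, at chr14:74732297-74750765.

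Position and strand followed a simple layout. The 27 takusan-type members of the plus strand start between 3049285 and 5185793, and the 25 of the minus strand start between 5821934 and 7640895, so the tract is made of 2 arms that face each other. Joined at the stricter limit of at least 50% shared words, 22 members around Gm2897 and Gm3411 formed the largest sequence group. Groups of 7 around Gm5795, 7 around Gm10408 and 4 around Gm3149 followed, with 3 pairs and 6 members on their own.

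Whole-number counts per library totalled 7076319 to 10896535, and 3 counts in 1 library equal 0.260 to 0.436 CPM (edgeR's depth-scaled counts, with TMM-adjusted library sizes). Cardiomyocyte markers (Myh6, Tnnt2, Actc1, Tnni3 and Ryr2) summed to 39656 to 52094 CPM in all libraries, which fits the tissue label, and the adipocyte markers Adipoq, Cfd and Plin1 were under 1 CPM in every library. Replicate libraries differed by more than counting noise, with chi-square per degree of freedom from 2.91 to 18. NTG 2 stood apart within its group (17 to 18 against each other NTG library), as did TGL 2 (11.1 and 11.5) and TGH 2 (11.2 and 10.3, where TGH 0 and TGH 1 differed by 6.43). Counts of called members are given below also without these libraries.

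Together the 54 members took up 67, 97, 77 and 87 counts in NTG 0 to NTG 3. They took up 461, 524 and 455 counts over TGL 0 to TGL 2, then 1241, 1815 and 1730 over TGH 0 to TGH 2. The groups did not overlap, and TGH libraries held the most. In NTG 23 to 30 of the 54 members had any count in a library, in TGL 51 to 54, and in TGH all 54 had one in each library. In bulk tissue, fewer cells that express a gene and less RNA per cell cannot be told apart.

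The summed level of the 52 takusan-type members was 4.55, 4.77, 4.66 and 5.49 CPM in NTG 0 to NTG 3. It was 41.9, 48.5 and 50.8 CPM for TGL, then 95.9, 109 and 141 CPM for TGH. The means were 4.87 ± 0.426 CPM (SD, n = 4), 47.0 ± 4.60 CPM (SD, n = 3) and 115 ± 23.3 CPM (SD, n = 3). The group means thus stood 9.66 times as high in TGL and 23.7 times as high in TGH as in NTG, and 2.45 times as high in TGH as in TGL. The spread was widest in TGH, where TGH 2 lay above the other libraries.

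The 2 Esd pseudogenes together stood at 4.41 to 5.29 CPM in NTG, 15.4 to 22.9 CPM in TGL and 45.8 to 49.4 CPM in TGH. Their means of 4.68 ± 0.410, 20.04 ± 4.04 and 47.9 ± 1.84 CPM (SD, n = 4, 3 and 3) put them 4.29-fold above NTG in TGL and 10.2-fold in TGH. Esd itself had 77.5 ± 5.19 CPM in NTG, 265 ± 38.3 CPM for TGL, then 605 ± 21.1 CPM for TGH, or 3.42-fold and 7.81-fold. TGL 2 was the lowest TGL library for the pseudogenes and for Esd, but the highest for the takusan-type members.

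**Figure D1:**
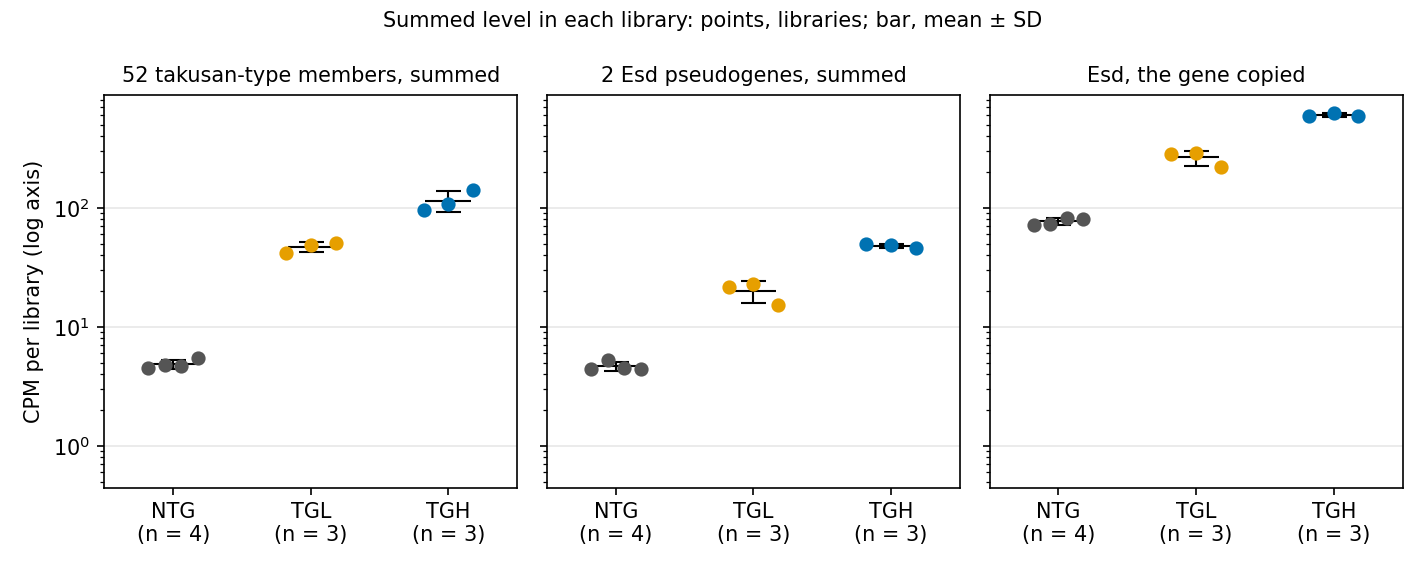
Summed CPM per library on a log axis for the 52 takusan-type members, the 2 Esd pseudogenes and Esd, by group. Points are libraries, and the bar with whiskers is the mean ± SD. In each panel the 3 groups do not overlap, and takusan-type members go from a mean of 4.87 CPM in NTG to 115 CPM in TGH.

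Levels of single takusan-type members were low. Group means had a median of 0.0558 CPM in NTG (highest 0.410), 0.748 CPM in TGL (highest 2.43) and 1.99 CPM in TGH, where they ran from 0.560 to 5.42 CPM. In NTG 12 members had no count in any library, and 32 had 3 counts or fewer over the whole group. Per kilobase of the longest transcript, the median level was 0.0359 CPM in NTG, 0.560 CPM for TGL, then 1.36 CPM for TGH. The 10 members with the most counts held 38.6% of the 4556 takusan-type counts. Because copies share sequence, the number of copies that are transcribed cannot be read from this spread.

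**Figure D2:**
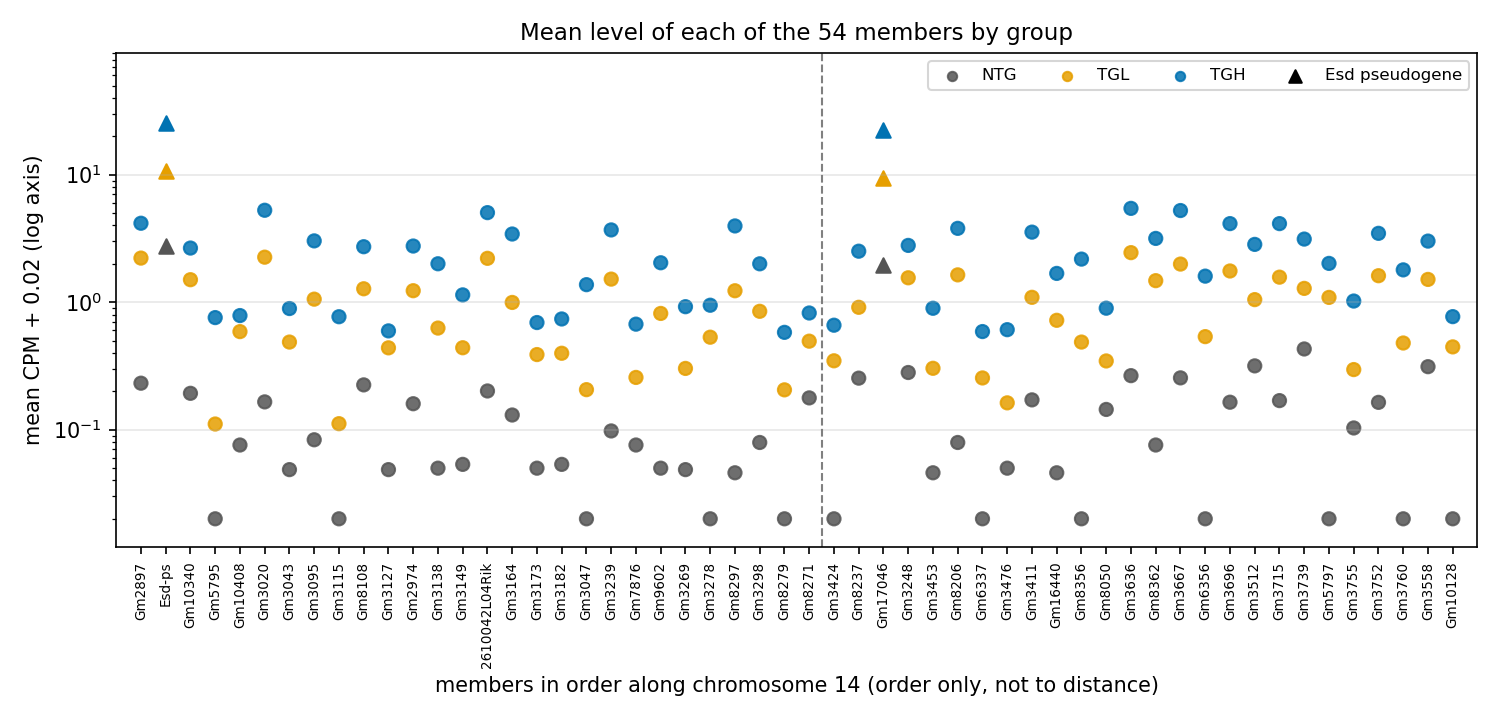
Mean CPM of each of the 54 members in NTG (n = 4), TGL (n = 3) and TGH (n = 3), with 0.02 CPM added for the log axis, in order along the chromosome. The dashed line parts the plus-strand arm from the minus-strand arm. TGH stands above TGL and TGL above NTG for every member, in both arms.

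Of the 54 members, 31 passed the filter on low counts, and the 23 that did not had 20 to 79 counts in all. Tests were edgeR's quasi-likelihood F test in 1 fit of the 3 groups, with Benjamini-Hochberg adjustment over all 14511 genes tested and a threshold of 0.05. In TGH against NTG 31 members were called higher and 0 lower, beside 16.0% of all genes called higher and 16.4% called lower. In TGL against NTG 28 were called higher and 0 lower, beside 4.15% and 2.14% of all genes. In TGH against TGL 15 were called higher and 0 lower, beside 5.53% and 4.11% of all genes. A member with few NTG counts passed the filter through its transgenic libraries, so these counts carry no weight as a result about the tract.

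Without a filter, the same test covered all 54 members and called 54 higher in TGH, 32 higher in TGL and 16 higher in TGH against TGL, beside 11.3%, 2.74% and 3.63% of all 21222 rows in that fit. Every TGH library lay above every NTG library for 54 of the 54 members, which 18.2% of all rows with at least 20 counts also did. Every TGL library lay above every NTG library for 47 members (10.4% of all rows), and every TGH above every TGL library for 42 (13.7%). Over the 54 members, the ratio of pooled CPM in TGH to NTG ran from 5.36 to 136 with a median of 20.5, where 12 ratios are lower bounds against 3 NTG counts. The ratio of TGL to NTG had a median of 8.44 (52 members, since Gm5795 and Gm3115 have too few counts in both groups), and that of TGH to TGL a median of 2.42, running from 1.34 to 8.04. Over all rows with at least 20 counts the 3 medians were 0.993, 0.999 and 1.00.

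Leaving out NTG 2 gave 27, 31 and 19 of 31 tested members called in TGL against NTG, TGH against NTG and TGH against TGL. Leaving out TGL 2 gave 30, 35 and 11 of 35 tested, since more members passed the filter. Leaving out TGH 2, where the takusan-type sum was highest, gave 29, 31 and 7 of 31 tested, so the last count depends on that library. It also fell to 7 of 35 without TGL 1, to 9 of 35 without TGL 0 and to 9 of 33 without TGH 1. The share of all genes called in these fits is not given, so the counts show only how calls depend on single libraries.

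Gm8297 (chr14:4983935-4992409, plus strand), a takusan-type gene with 93.1% of its words in other genes, had the highest ratio among the members with a count in NTG. The 12 members without one have only lower bounds and cannot be ranked against it. It had 0, 1, 0 and 0 counts in NTG, 11, 8 and 7 for TGL, then 26, 49 and 42 for TGH. The groups were separate, and the only NTG count lay in NTG 1. With 1 NTG count, its ratio of 136 in TGH has a 95% exact counting interval of 24.0 to 5435, and its ratio of 41.5 in TGL one of 6.81 to 1700. The adjusted p from edgeR was 2.84e-06 in TGH and 0.00111 in TGL. Gm8297 passed the filter on low counts through its transgenic libraries, so these p-values carry no weight as a result about the tract. Between the lines, which both have counts, TGH was higher by 1.70 ± 0.32 on the log2 scale (SE, edgeR adjusted p = 0.00686). Its nearest relative among the members, Gm3047, had 0 counts in NTG, 2, 1 and 1 for TGL, then 11, 12 and 16 for TGH, at least 15.2-fold higher in TGH.

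Gm3411 (chr14:6259747-6287250, minus strand), in the largest sequence group, had 2, 1, 1 and 1 counts in NTG, 9, 7 and 7 for TGL, then 21, 40 and 43 for TGH. All groups were separate, and TGH 0 was the lowest TGH library. Its log2 fold change was 2.75 ± 0.50 in TGL (SE, edgeR adjusted p = 0.00661) and 4.46 ± 0.39 in TGH (adjusted p = 6.75e-06). TGH exceeded TGL by 1.71 ± 0.32 (adjusted p = 0.00612). In that group Gm2897, which shares 67.4% of its words with Gm3411, had log2 fold changes of 3.33 ± 0.60 in TGL and 4.24 ± 0.53 in TGH (edgeR adjusted p = 0.00686 and 0.000113).

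2610042L04Rik (chr14:4334763-4354688, plus strand) is the member that carries the takusan name, and 72.3% of its words were shared. It had 2, 1, 2 and 1 counts in NTG, 16, 17 and 14 for TGL, then 39, 50 and 57 for TGH. The 3 groups were well apart, and the libraries of each were close. Its log2 fold changes of 3.53 ± 0.37 in TGL and 4.72 ± 0.32 in TGH passed edgeR's test (adjusted p = 0.000173 and 9.29e-07), as did the 1.19 ± 0.24 between the lines (adjusted p = 0.00981).

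The members with the most takusan-type counts were Gm3636 and Gm3020. Gm3636 had 0, 5, 1 and 3 counts in NTG, 15, 19 and 18 for TGL, then 34, 62 and 64 for TGH. Gm3020 had 1, 1, 0 and 3 counts in NTG, 13, 20 and 15 for TGL, then 33, 57 and 64 for TGH. Both rose in each line against NTG, by 3.14 ± 0.50 and 4.30 ± 0.44 for Gm3636 and by 3.81 ± 0.53 and 5.03 ± 0.46 for Gm3020 (log2, SE, edgeR adjusted p from 0.00326 to 8.64e-06). Of the 1933 bases of the longest Gm3020 transcript, 99.7% of the words lay in another gene.

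Other members of the largest sequence group that rose in both lines were Gm10340, Gm3095, Gm8108, Gm2974, Gm3164, Gm3239, Gm3298, Gm8206, Gm3667, Gm3696, Gm3752, Gm3558 and the unprocessed pseudogene Gm3715. Their pooled ratios of TGH to NTG ran from 10.4 for Gm3558 to 63.0 for Gm8206, the latter with 2 NTG counts and a 95% exact counting interval of 17.0 to 527. Per kilobase, Gm3715 had the highest takusan-type level, 6.66 CPM in TGH. Outside that group, Gm8362, Gm5797, Gm8356, Gm3138, Gm16440, Gm3760 and Gm3248 were called higher in both lines. All of these but Gm3248 had 0 to 2 NTG counts and passed the filter through their transgenic libraries. Gm5797 had 0 counts in NTG, 11, 6 and 6 for TGL, then 16, 25 and 18 for TGH. With 3 counts put in for NTG it was 12.2-fold and 22.9-fold higher (95% exact lower limits 9.17 and 18.1). Gm8356, also at 0 in NTG, had 5, 2 and 3 counts in TGL, then 15, 32 and 18 in TGH, at least 25.3-fold higher in TGH.

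The call was missed in TGL against NTG by 3 members that were called in TGH. Gm8237 had 1, 1, 2 and 4 counts in NTG and 2, 8 and 9 in TGL, with overlap between the groups (log2 fold change 1.86 ± 0.64, edgeR adjusted p = 0.114). Gm3512 stood at 1.76 ± 0.48 and Gm3739 at 1.59 ± 0.43 (edgeR adjusted p = 0.0527 for each). Of the 28 calls in TGL, 20 were kept in every fit that left out 1 library. Gm3760 lost its call in 9 of 10 such fits, Gm8108 and Gm3298 in 2 each, and Gm3138, Gm3164, Gm16440, Gm8356 and Gm3558 in 1 each. Gm3739 had the highest NTG level of the takusan-type members, 0.410 ± 0.196 CPM (SD, n = 4), and in TGH it rose by 2.87 ± 0.36 (edgeR adjusted p = 0.000115). The members with most sequence of their own, Gm8237 and Gm3248, both rose by 3.32 in TGH (SE 0.52 and 0.40, edgeR adjusted p = 0.000553 and 7.67e-05).

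Between the lines, the called members were Esd-ps, Gm17046, Gm8297, Gm3411, 2610042L04Rik, Gm3020, Gm3667, Gm3715, Gm3752, Gm3739, Gm3164, Gm3512, Gm3095, Gm8356 and Gm3138. Their log2 differences of TGH over TGL ran from 1.12 ± 0.28 for Gm3752 to 2.19 ± 0.43 for Gm8356 (SE, edgeR adjusted p = 0.027 and 0.0142). Gm3636, with more counts than most of them, stood at 1.16 ± 0.35 with an adjusted p of 0.0578, and Gm2897 at 0.91 ± 0.41 with an adjusted p of 0.196. Of the 15 calls, 5 were kept in each of the 10 fits that left out 1 library, those of Esd-ps, Gm17046, Gm8297, Gm3411 and 2610042L04Rik. The other 10 were lost in 1 fit (Gm3164) to 7 fits (Gm3020), with adjusted p up to 0.127.

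**Figure D3:**
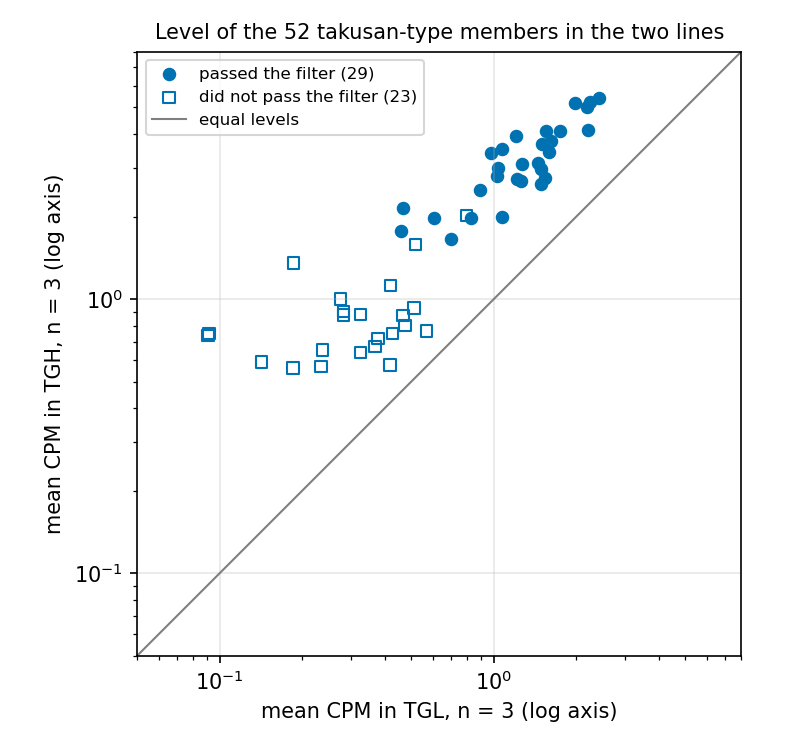
Mean CPM of each of the 52 takusan-type members in TGL (n = 3) against TGH (n = 3), both on log axes, with the line of equal levels. Filled points (29) passed the filter on low counts and open squares (23) did not. All points lie above the line, and the median ratio of TGH to TGL over these members was 2.43.

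Among the 23 members that did not pass the filter, Gm9602 had the most counts, with 0, 0, 1 and 0 in NTG, 4, 6 and 7 for TGL, then 7, 28 and 26 for TGH. TGH 0 did not stand above the highest TGL library, while both lines stood above NTG. Its ratio of 71.1 in TGH has a 95% exact counting interval of 12.3 to 2855. Gm6356 had 0 counts in NTG, 3, 3 and 5 for TGL, then 15, 12 and 18 for TGH. With 3 counts put in for NTG it was 17.5-fold higher in TGH (95% exact lower limit 13.7). Besides Gm3047 (43 counts), described above, the others with the most counts were Gm3149, Gm3755, Gm8271, Gm3278, Gm8050, Gm3043 and Gm10408. Of these, Gm8271 had a ratio of 5.36 in TGH, the lowest among the members with a count in NTG, with 3, 0, 0 and 2 counts in NTG and 8, 7 and 8 in TGH.

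At the minimum of 20 counts stood Gm8279 (20 counts) and Gm3476 (21) just inside and Gm3030 (19) and Gm2888 (15) just outside. Gm2888 had all its 15 counts in TGH, and Gm3030 had 3 in NTG, 4 in TGL and 12 in TGH. The 8 rows of the interval under the minimum held 4 counts in NTG, 12 in TGL and 55 in TGH together.

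Amount of shared sequence and size of the ratio were set side by side. Among the 20 takusan-type members with at least 90% shared words, the median ratio of TGH to NTG was 19.0 (9 passed the filter). It was 22.5 among the 24 with 80% to under 90% (14 passed) and 18.9 among the 8 with less (6 passed). The ranges overlapped widely, from 5.36 to 136, from 6.997 to 71.1 and from 7.41 to 29.7. In these bins 5, 5 and 2 ratios are lower bounds, and the 6.997 is one of them. The 3 members with under 50% shared words had a summed level of 0.494 ± 0.252 CPM in NTG, 2.94 ± 1.12 CPM for TGL, then 6.84 ± 1.74 CPM for TGH (SD, n = 4, 3 and 3).

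**Figure D4:**
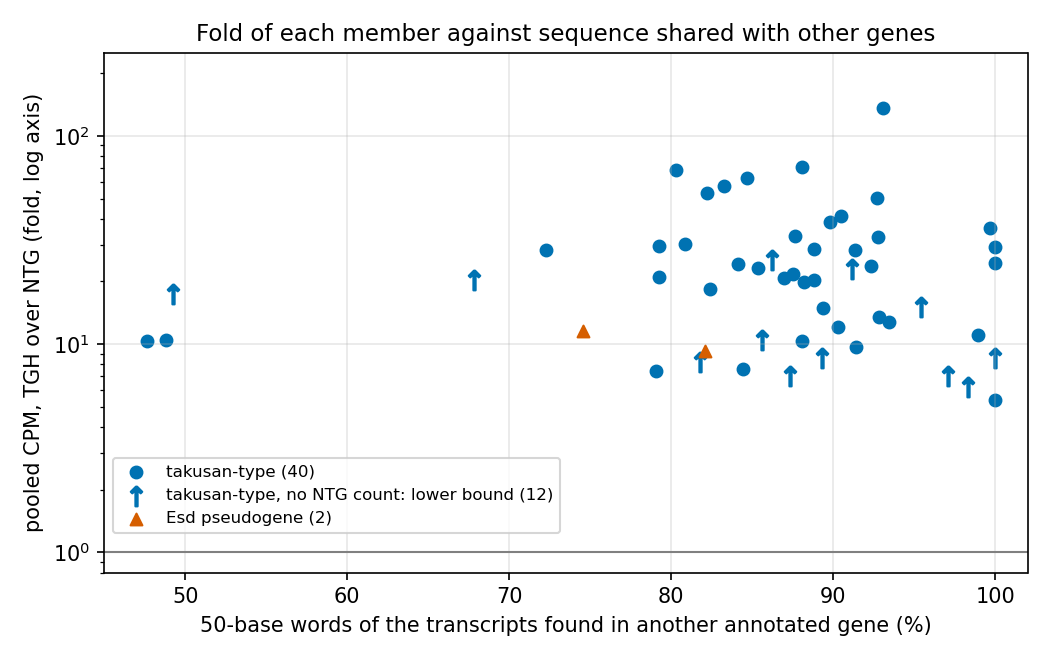
Ratio of pooled CPM in TGH to NTG (log axis) against the percentage of 50-base words found in another annotated gene, for each member. Arrows are lower bounds for the 12 members with no NTG count. The 54 ratios run from 5.36 to 136, and members at 47.6% and at 100% both lie above 1.

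The parts of the takusan-type counts held by each sequence group were compared. The group of 22 around Gm2897 held 123 of 167 counts in NTG (73.7%, 95% Wilson interval 66.5 to 79.7%), 64.1% in TGL (61.1 to 67.0%) and 62.3% in TGH (60.6 to 63.9%). The group of Gm5795 held 2.99% in NTG (1.29 to 6.82%), 4.07% in TGL and 4.14% in TGH, and the group of Gm10408 9.58% (5.98 to 15%), 7.04% and 6.00%. The group of Gm3149 held 2.40% (0.935 to 6.00%) in NTG, 6.55% (5.18 to 8.25%) in TGL and 5.92% (5.17 to 6.76%) in TGH. The intervals cover counting error only and were not tested between groups. The plus-strand arm had a median ratio of 12.5 in TGL and 23.3 in TGH, and the minus-strand arm 5.85 and 20.2, bounds included.

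Esd-ps had 15, 32, 23 and 25 counts in NTG, 84, 91 and 56 for TGL, then 218, 298 and 235 for TGH. It was the most abundant member, the groups did not overlap, and its 3 TGH libraries lay within 25.4 to 25.8 CPM. It rose by 1.95 ± 0.18 in TGL and 3.20 ± 0.17 in TGH (log2, SE, edgeR adjusted p = 6.35e-05 and 1.0e-07). Gm17046 had 18, 19, 15 and 14 counts in NTG, 74, 77 and 50 for TGL, then 204, 261 and 189 for TGH. It rose by 2.27 ± 0.19 and 3.52 ± 0.17 (edgeR adjusted p = 1.93e-05 and 4.66e-08). Both stood 1.25 higher in TGH than in TGL (log2, SE 0.16 and 0.15, edgeR adjusted p = 0.000569 and 0.000464).

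Esd rose alongside them, by 1.78 ± 0.097 in TGL and 2.96 ± 0.099 in TGH (log2, SE, edgeR adjusted p = 5.31e-07 and 2.85e-09). It had 541 to 713 counts in NTG, 1522 to 2134 in TGL and 5041 to 7277 in TGH, with no overlap between groups. Because the copies share sequence, the part of all Esd-type counts that fell on the 2 pseudogenes was set out per library. It was 5.75%, 6.68%, 5.20% and 5.22% over NTG 0 to NTG 3. For TGL it was 7.13%, 7.30% and 6.51%, and for TGH 7.72%, 7.13% and 7.14%. The TGH values lay above all NTG values, while TGL 2 lay below NTG 1. The mean share was 5.71 ± 0.692% in NTG (SD, n = 4), 6.98 ± 0.415% in TGL and 7.33 ± 0.340% in TGH (SD, n = 3 each).

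No test of this share is given, since it is built from counts that chose the members and the smallest exact permutation p that 3 against 4 libraries allow is 0.0571. The mean share was 1.62 percentage points higher in TGH than in NTG. Against Esd alone, Esd-ps held 2.70 to 4.30% in NTG and 3.93 to 4.15% in TGH, and Gm17046 1.94 to 3.22% and 3.31 to 3.89%.

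**Figure D5:**
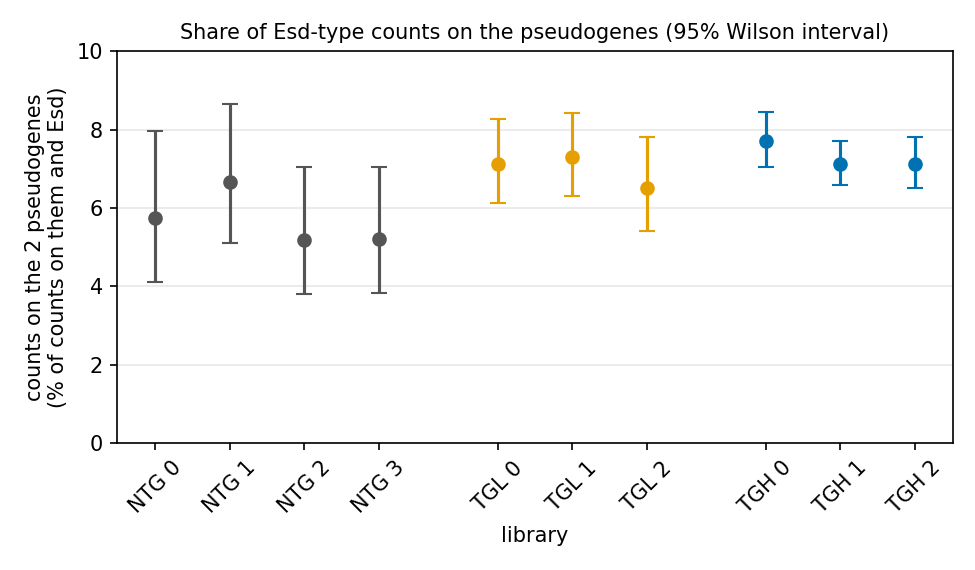
Counts on Esd-ps and Gm17046 as a percentage of all counts on them and Esd, for each of the 10 libraries, with 95% Wilson intervals that cover counting error only. NTG libraries run from 5.20% to 6.68% and TGH libraries from 7.13% to 7.72%.

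Promoters were looked up in RefSeq (build GRCm38.p6), with 250 bases before to 50 after each start. Entries matched 33 of the 52 takusan-type members in 48 windows. Those of 2610042L04Rik (chr14:4334513-4334812, plus) and Gm3411 (chr14:6287201-6287500, minus) are shown because they come from opposite arms and are 93.0% identical base by base. By the same comparison without gaps, the other takusan-type windows were 19.7% to 35.0% identical to that of Gm3411. A shift in the annotated start lowers this value. That of Gm2897 (chr14:3049035-3049334, plus) is shown because it holds a match to the core of the antioxidant response element, TGACNNNGC, marked in capitals.

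2610042L04Rik: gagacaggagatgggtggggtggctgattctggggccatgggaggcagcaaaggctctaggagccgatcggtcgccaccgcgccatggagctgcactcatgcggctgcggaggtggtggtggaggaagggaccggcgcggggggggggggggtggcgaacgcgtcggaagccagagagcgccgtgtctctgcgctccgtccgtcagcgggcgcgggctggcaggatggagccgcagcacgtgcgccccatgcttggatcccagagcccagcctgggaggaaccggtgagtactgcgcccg

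Gm3411: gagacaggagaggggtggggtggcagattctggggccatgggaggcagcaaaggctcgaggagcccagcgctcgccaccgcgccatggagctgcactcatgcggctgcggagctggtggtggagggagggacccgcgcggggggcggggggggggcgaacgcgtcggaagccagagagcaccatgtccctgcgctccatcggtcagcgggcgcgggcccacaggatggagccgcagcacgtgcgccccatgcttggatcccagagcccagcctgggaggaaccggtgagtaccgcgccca

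Gm2897: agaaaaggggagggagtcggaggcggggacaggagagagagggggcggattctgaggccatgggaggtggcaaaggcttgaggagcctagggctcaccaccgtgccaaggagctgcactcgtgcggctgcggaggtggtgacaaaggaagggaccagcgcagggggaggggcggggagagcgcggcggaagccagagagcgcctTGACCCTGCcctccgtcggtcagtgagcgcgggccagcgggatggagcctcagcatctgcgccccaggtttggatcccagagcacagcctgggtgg

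On either strand, TGACNNNGC occurred in 15 of the 48 windows (31.2%), belonging to 14 of the 33 genes, and in 12.4% of all 32851 promoter windows of that length. Over all takusan genes annotated in the interval, these members included, it occurred in 21 of 87 windows (24.1%), belonging to 20 of 62 genes. Most of the 15 windows held the same run of letters, GCTATGTCA, as a match on the other strand. The match marked above in Gm2897, TGACCCTGC, was otherwise found only in the windows of Gm3248. The AP-1 site TGACTCA, which starts with the same 4 letters and can overlap that core, occurred in 0 of the 48 windows and in 5.20% of all. The TATA box TATAAA occurred in 4.17% of the windows and in 13.6% of all. Many windows share sequence, so they are not independent, and a match is only a run of letters.

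Relatives beyond the tract were few in the table. Of 9 annotated genes elsewhere that hold at least 10% of their words in genes of the interval, 1 had a row. This was Gm2244 (chr14:19532896-19549963), with 89.8% of its words in the interval, and it had 0, 0, 0 and 1 counts in NTG, 4, 2 and 1 for TGL, then 8, 9 and 9 for TGH. TGL 2 and NTG 3 had 1 count each, and TGH was above both other groups. With 1 NTG count, its ratio of 30.3 in TGH has a 95% exact counting interval of 4.98 to 1243.

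Rows around the tract on chromosome 14 were tested in the same fit. The first row beyond the tract, Gm10044, had 3 counts or fewer in each group. In the next interval of the same length, 16 of 18 rows were tested, and 2 were called higher and 3 lower in TGH against NTG, and 2 higher and 0 lower in TGL against NTG. In the rest of the chromosome 71 of 466 tested genes were called higher and 73 lower in TGH against NTG. Over all genes tested in the series these shares were 16.0% and 16.4%. In TGL against NTG 12 of the 466 were called higher and 12 lower, beside 4.15% and 2.14% of all genes tested.

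Takusan proteins are known as partners of membrane-associated guanylate kinases in neurons, and 34 such scaffold genes and their receptors were looked up. Of the 23 rows tested (Magi1 has 2), 3 were called higher and 4 lower in TGH against NTG, 1 higher and 2 lower in TGL against NTG, and 0 higher and 1 lower in TGH against TGL. Of all genes, 16.0% were called higher and 16.4% lower in TGH against NTG, so the list stands near that share. Dlg4, which encodes PSD-95, had 5.64, 5.04 and 3.53 CPM as means of NTG, TGL and TGH (log2 fold change in TGH -0.69 ± 0.33, edgeR adjusted p = 0.129). Dlg2, a scaffold of the same family, rose from 1.37 to 6.20 and 8.17 CPM (edgeR adjusted p = 0.00693 and 0.00032). The more abundant Dlg1, also of that family, fell from 115 to 90.4 and 88.1 CPM (edgeR adjusted p = 0.0114 and 0.0014). Magi2 fell by 1.15 ± 0.17 and Shank3 by 1.00 ± 0.16 on the log2 scale in TGH (edgeR adjusted p = 0.000404 and 0.000553).

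Markers of other cells moved with the groups in part. Summed macrophage markers were at 182 to 218 CPM in NTG, 167 to 222 CPM in TGL and 297 to 321 CPM in TGH, with 3 of 4 called higher in TGH. Summed fibroblast markers were at 835 to 1088 CPM, 1105 to 1448 CPM and 1302 to 1381 CPM, with 4 of 5 called higher in TGH. Of the Schwann cell and neuronal markers, 5 of 7 had a row, with sums of 5.86 to 8.69 CPM in NTG, 8.17 to 11.9 CPM in TGL and 8.82 to 12 CPM in TGH. Of the 3 tested, 1 was called higher in TGH and 0 in TGL. Of the atrial markers, Myl7, Sln and Bmp10 were under 1 CPM in every library, while Myl4, the only one tested, was called higher in both lines, with summed levels of 1.87 to 4.07 CPM in NTG, 13.7 to 44.2 CPM in TGL and 37.6 to 56.1 CPM in TGH. Summed endothelial markers were at 689 to 738 CPM in NTG, 555 to 736 CPM in TGL and 491 to 597 CPM in TGH, with 3 of 4 called lower in TGH. Summed smooth muscle markers spread widely, over 193 to 1006 CPM in NTG, 432 to 804 CPM in TGL and 789 to 1250 CPM in TGH. Of these, 1 of 4 was called higher in TGH. Of the cardiomyocyte markers 4 of 5 were called lower and 1 higher in TGH. Beside these counts, 16.0% of all genes were called higher and 16.4% lower in TGH against NTG. None of the markers with a row was at 0 in all libraries. The part of these markers in the levels of the tract was not tested.

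The non-member genes whose log2 CPM followed the summed level of the 54 members most closely over the 10 libraries were Brinp3, Tekt5, Map7d2, Sstr5 and Gpr83, among 13881 genes that reached 1 CPM on average. Their Pearson r, over libraries that fall into 3 separate groups, ran from 0.999 to 0.995, and 53 genes reached 0.98. For this, 0.5 CPM was added to the level of each gene before taking log2, and nothing to the summed level. Brinp3, named as a neural protein, had no count in NTG and means of 5.63 and 18.5 CPM in TGL and TGH. Map7d2, a microtubule-associated protein, had means of 0.946, 43.4 and 164 CPM. They lie on 5 other chromosomes (1, 16, X, 17 and 9). Esd had rank 17 with r = 0.990, but the summed level includes its 2 pseudogenes, which share sequence with it and held 4.68 of the 9.54 CPM in NTG.

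The authors' deposited table, which compares the 6 transgenic libraries with NTG, gives the members log2 fold changes of 2.11 to 6.20 with a median of 4.20. Of the 54 members, 49 are higher in the authors' deposited table with an adjusted p under 0.05 and 0 are lower, beside 7.51% of all its rows higher. The largest value there is that of Gm8297 (6.20, SE 1.14), and the authors' deposited table gives 3.99 for Gm3411, 2.74 for Esd-ps and 3.04 for Gm17046. It uses the same libraries and shares the NTG controls with both comparisons above.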

How the data were processed

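RNA of the left ventricle, frozen and extracted with Trizol, was sequenced from TruSeq libraries, per the labels' protocols. Per the submitters' processing notes, the tools were bcl2fastq 1.8.4, Trim Galore 0.4.0, Novoalign, SAMtools and DESeq2 1.18.1, with build mm10 (GRCm38). The read counter, its annotation and its strand are not given in the labels or notes. The table deposited by the authors holds whole-number counts per gene and library. Other deposited columns compare the 6 transgenic with the NTG libraries. They are, per the file headers, log2 fold changes, their standard errors, a score (Wald statistic), p-values and a signal (mean normalized count), and they were only quoted.

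From the counts, edgeR 4.0.16 (filterByExpr by group, TMM, quasi-likelihood F test, Benjamini-Hochberg) was fitted once over 3 groups. It was tested on simulated data first. SE is the size of the log2 fold change divided by the square root of its F statistic, and the biological coefficient of variation was 13.9%. CPM use TMM-adjusted library sizes, and a ratio is pooled CPM of one group over another. A ratio against a group at 0 was computed with 3 counts for that group and is called a lower bound. It leaves out counting error in the other group, and its 95% exact lower limit is smaller. Ratios with 1 to 3 counts have 95% exact intervals, which cover counting error only. The members and lists were chosen with earlier results of these data known. The limit of 10% shared words, the Esd share and the motifs were added after seeing the data. Named were the group markers, every called member, the 10 other members with the most counts and those around the minimum. Alternatives were RLE factors, DESeq2 1.42.0, no filter, 2 groups, the replicate number as a block and leaving out each library.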

Additional observations from a re-analysis of the deposited data

Results flagged for a closer look

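Among the 35 values checked in NTG, 4 had 1 library apart from the other 3 by more than the critical gap of 0.829 of the range. For continuous values, chance alone gives such a gap in about 1 of 20 groups. The summed level of the 2 Esd pseudogenes was 5.29 CPM in NTG 1, against 4.41 to 4.54 CPM in the other 3. Gm3411 stood at 0.267 CPM in NTG 0, which is 2 counts where the others had 1. The pair of Gm3047 and Gm8297 had its only NTG count in NTG 1 (0.104 CPM), and the pair of Gm9602 and Gm8356 had its only one in NTG 2 (0.120 CPM). Each of the last 3 rests on 1 or 2 counts, for which that rate does not hold. A single count in a group always gives a gap of 1.0 of the range.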

How the results depend on the processing

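No result reversed under any alternative. RLE factors gave 28, 31 and 15 called members in TGL against NTG, TGH against NTG and TGH against TGL, as in the report. In TGL against NTG, a fit of only these 2 groups called 9, the same number as it tested, since fewer members passed its filter. In TGH against NTG, DESeq2 called 53 of 54 and the fit without a filter 54, both of which cover more members. DESeq2 called 32 in TGL and 11 in TGH against TGL, and the fit of 2 groups 31 in TGH and 14 between the lines. Leaving out 1 library gave 22 to 30, 31 to 35 and 7 to 19, with 31 to 35 members tested. Replicate numbers did not pair the libraries, since same-numbered residuals correlated from -0.0525 to 0.335. With the replicate block the counts were 26, 31 and 15. The share of all genes called in each of these fits, other than the one without a filter, is not given. The counts thus show only how calls depend on the processing. Depth limits single copies: 3 counts are 0.260 to 0.436 CPM, above the NTG level of most members.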
